A study of Mus musculus with 3 samples.

Results

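The respiratory chain of the mouse kidney was examined as 104 genes out of 27998 measured. They were taken by symbol: the Ndufa, Ndufb, Ndufc, Ndufs, Ndufv, Uqcr, Cox4 to Cox8 and Atp5 families and Sdha to Sdhd gave 91 nuclear genes, and the mt- prefix gave 13 genes of the mitochondrial genome. The rule leaves out 1 gene of these families, which is not analysed here. It reads symbols and no measured value, and was set with earlier results of these data known. The data are single-cell RNA-seq of kidneys 14 days after folic acid (FA), which injures the tubules. There were 2 libraries from Aoah-/- mice (Aoah-/- 2 and Aoah-/- 3) and 1 from a WT mouse (WT 3), each from 1 mouse, with an age label of 6 to 8 weeks. Aoah-/- mice lack acyloxyacyl hydrolase, a lipase that inactivates lipopolysaccharide, in the whole body and not in tubules alone. They were on the C57BL/6J background with WT littermates as controls, and all 3 mice received FA, so no uninjured kidney is among these libraries.

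The respiratory chain passes electrons from NADH and succinate to oxygen and uses the energy to pump protons across the inner mitochondrial membrane. Complex I oxidises NADH, complex II oxidises succinate, complex III passes electrons to cytochrome c, complex IV reduces oxygen, and complex V makes ATP from the proton gradient. Complexes I, III, IV and V are built from nuclear and mitochondrial gene products, while complex II is encoded in the nucleus alone. Tubule cells reabsorb salt and solutes at a high energy cost and are rich in mitochondria, above all in the proximal tubule, the thick ascending limb and the distal convoluted tubule. By complex, the nuclear genes comprised 36 subunit genes of complex I, 8 genes for its assembly (7 Ndufaf genes and Atp5sl), 4 of complex II, 8 of complex III, 19 of complex IV and 15 of complex V, plus the coupling factor gene Atp5s. Ndufa4 and Ndufa4l2 were counted with complex IV, to which their products belong. The mt- genes comprised 7 of complex I, 1 of complex III, 3 of complex IV and 2 of complex V.

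Nuclear regulators of these genes bind short motifs at their promoters, among them NRF1, the estrogen-related receptors (ERR), the ETS factor GABP and YY1. Of the 91 nuclear genes, 76 matched a RefSeq promoter window (GRCm38.p6, 250 bases before to 50 after the start, the first window listed for each gene). The letters GCGCATGCG, a core of the NRF1 motif, stood on either strand in 10 of the 76 windows (13.2%) against 1.81% of 27025 windows of all genes. CCGGAAG, an ETS core, stood in 16 (21.1% against 9.12%), AAGATGGCG, a YY1 core, in 7 (9.21% against 1.49%), and TCAAGGTCA, an ERR site, in 2 (2.63% against 0.407%). At least 1 of these 4 words was present in 39.5% of the member windows and in 12.1% of all windows. A match is a description of the letters and not a binding site. The 150 bases before the start are shown 5′ to 3′ for 6 genes that recur below, with motif letters in capitals: the 3 genes of the proton-carrying c subunit of complex V, whose levels differed between cell classes, the isoform gene Cox7a1, and Uqcr11 and Ndufaf4, which lay on opposite sides of WT in proximal tubule cells.
Atp5g1 (chr11:96075632-96075781, minus strand): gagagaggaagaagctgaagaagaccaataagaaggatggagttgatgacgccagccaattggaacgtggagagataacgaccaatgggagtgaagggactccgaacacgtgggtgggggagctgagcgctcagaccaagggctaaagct
Atp5g2 (chr15:102671048-102671197, minus strand): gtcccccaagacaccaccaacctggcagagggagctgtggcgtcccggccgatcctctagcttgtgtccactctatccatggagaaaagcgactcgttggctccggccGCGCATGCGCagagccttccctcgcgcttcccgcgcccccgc
Atp5g3 (chr2:73911327-73911476, minus strand): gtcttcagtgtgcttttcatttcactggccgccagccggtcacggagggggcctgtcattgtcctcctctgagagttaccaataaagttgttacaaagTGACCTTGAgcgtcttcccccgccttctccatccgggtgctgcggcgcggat
Cox7a1 (chr7:30184021-30184170, plus strand): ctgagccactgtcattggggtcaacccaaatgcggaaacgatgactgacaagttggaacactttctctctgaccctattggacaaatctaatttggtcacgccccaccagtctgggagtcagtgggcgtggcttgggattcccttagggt
Uqcr11 (chr10:80406822-80406971, minus strand): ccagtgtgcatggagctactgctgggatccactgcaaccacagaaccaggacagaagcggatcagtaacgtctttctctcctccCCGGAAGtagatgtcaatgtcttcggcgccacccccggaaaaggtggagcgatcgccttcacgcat
Ndufaf4 (chr4:24897933-24898082, plus strand): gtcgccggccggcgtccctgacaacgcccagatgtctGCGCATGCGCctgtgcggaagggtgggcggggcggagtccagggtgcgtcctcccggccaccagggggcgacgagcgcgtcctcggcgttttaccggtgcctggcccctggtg
The capitals are an NRF1 core and its reverse complement, which overlap, in Atp5g2 and Ndufaf4, an ERR site on the opposite strand in Atp5g3, and an ETS core in Uqcr11. Uqcr11 also held an NRF1 core across its start, which lies only in part within the stretch shown and is left in lower case. The Atp5g1 and Cox7a1 stretches hold none of the 4 words.

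The libraries held 23072 to 25516 cell barcodes and 158551992 to 167222984 UMIs (molecules). Barcodes reached down to 500 UMIs in Aoah-/- 2 and WT 3 but only to 1672 in Aoah-/- 3, and pairs of libraries shared 171 to 176 barcode sequences, at most 0.763% of the smaller library. Of all barcodes, 15.1% in Aoah-/- 2, 19.5% in Aoah-/- 3 and 15.9% in WT 3 had over 50% of their UMIs from mt- genes and were left out of the main values. That limit acts on members, so values without it are given too. Aoah itself was read at 8.30 and 7.58 UMIs per 1000000 UMIs of genes other than mt- in the Aoah-/- libraries and 22.2 in WT 3, and at 17.5, 16.1 and 33.8 in proximal tubule-like cells. It was therefore lower but not at 0 in the mutants, and where its reads lie relative to the deletion is not known here. The 59262 kept cells formed 38 clusters, made without the 104 genes, and 31 of them (93.3% of cells) were assigned to 19 cell classes by marker genes. The classes are called PTEC-like (proximal tubular epithelial cells) and so on, since they rest on markers and not on sorting.

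Levels of nuclear genes are given in CPM, UMIs per 1000000 UMIs of genes other than mt-, and those of mt- genes as the percent or CPM of all UMIs. The UMIs come from transcript 3′ ends, so a gene's level was compared across classes and libraries and not with other genes. Groups of 3 values are in the order Aoah-/- 2, Aoah-/- 3 and WT 3. Together the nuclear genes gave 15270078 UMIs and the mt- genes 71206045. Of the 104 genes, 100 had at least 30 UMIs in every library, and Cox7b2 and Cox8c, isoforms known from other tissues, had none. As WT is represented by 1 mouse, genotypes were compared by value alone, without a test or p-value. A genotype difference is given as log2 of the mean Aoah-/- level over the WT level, with the SD between the 2 Aoah-/- libraries.

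Distal convoluted tubule-like cells had the highest level of nuclear respiratory chain RNA, as a share of UMIs other than mt- and not as an amount per cell. The summed level was 100188 CPM in Aoah-/- 2, 104624 in Aoah-/- 3 and 106061 in WT 3. Thick ascending limb-like cells followed with 72317, 74107 and 71701, intercalated-like cells with 68180, 71052 and 67498, PTEC-like cells with 61548, 61996 and 60455, and principal-like cells with 55197, 59932 and 56736. Each of these 5 classes lay above the next in all 3 libraries, with no overlap of their ranges. Injured PTEC-like cells, which carry both proximal tubule and injury markers, came next at 44155, 42416 and 46440.

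Immune, stromal and vascular classes lay far lower, and most neighbours in their order overlapped in range. T lymphocyte-like cells had 23992, 24724 and 24545 CPM, macrophage-like cells 21181, 21796 and 21963, and endothelial-like cells, the lowest class, 19094, 19917 and 18204. From fibroblast-like to dendritic-like cells each class overlapped its neighbour in range. PTEC-like cells exceeded T lymphocyte-like cells by a log2 of 1.33 ± 0.029 (SD, n = 3 libraries), 2.51-fold, and endothelial-like cells by 1.69 ± 0.047, 3.22-fold. Cytosolic ribosomal protein genes took 247857 to 252726 CPM in T lymphocyte-like cells against 66067 to 71490 in PTEC-like cells, and they share the denominator with the respiratory chain genes. Their part in the class difference was not tested.

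**Figure D1:**
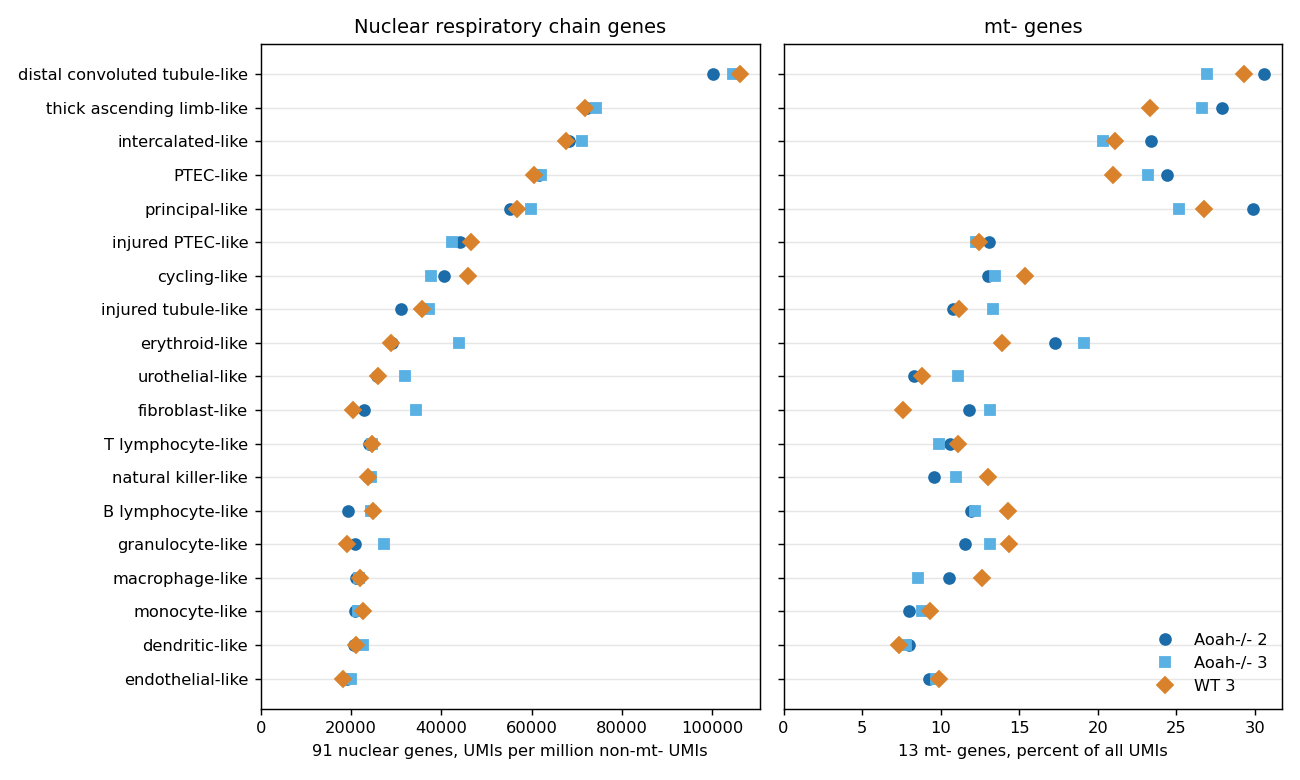
Summed level of the 91 nuclear genes (left, CPM) and share of the 13 mt- genes (right, percent of all UMIs) in each cell class, with 1 point per library. Distal convoluted tubule-like cells lie to the right of every other class on the left panel, and the 5 tubule classes at the top have the highest mt- shares.

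The mt- genes followed a similar but flatter order. Their share of all UMIs was 30.6% in Aoah-/- 2, 27.0% in Aoah-/- 3 and 29.3% in WT 3 in distal convoluted tubule-like cells, and 24.4%, 23.2% and 21.0% in PTEC-like cells. Intercalated-like cells had 23.4%, 20.4% and 21.1%, below PTEC-like cells in 2 of 3 libraries although their nuclear level was higher in all 3. The lowest share was in dendritic-like cells, at 7.96%, 7.81% and 7.35%. PTEC-like cells exceeded T lymphocyte-like cells by a log2 of 1.12 ± 0.17. Without the limit on mt- UMIs per cell the PTEC-like share was 35.01%, 32.7% and 29.8%, and the T lymphocyte-like share 15.5%, 14.9% and 16.4%. Immune classes also held RNA of PTEC markers (14 genes, summed). These gave 3566, 5350 and 4679 CPM in dendritic-like, 10074, 10238 and 12547 in T lymphocyte-like and 12076, 22973 and 11747 in granulocyte-like cells. PTEC-like cells had 74703, 88482 and 86741. The part of such RNA in the order of classes, nuclear or mt-, was not tested.

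Cells above the limit differed in their nuclear genes as well. Clustered without a limit, PTEC-like cells with 20 to 35% mt- UMIs had nuclear levels of 65616, 67095 and 62018 CPM, and those with 50% or more had 38293, 38397 and 41348. The same drop was present in distal convoluted tubule-like cells, from 105404, 112630 and 113351 to 67099, 68454 and 66396, and in thick ascending limb-like cells, from 74173, 76163 and 78654 to 53151, 59832 and 54709. In all 3 libraries and these 3 tubule classes, cells with most of their UMIs from mt- genes had less nuclear respiratory chain RNA among the rest. The drop was not particular to tubule classes. T lymphocyte-like cells went from 34640, 30978.5 and 30359 to 22807.5, 25925 and 21038. Their cells below 10% mt- UMIs had 21601, 23002 and 22371, so from that share the Aoah-/- libraries showed no drop. PTEC-like cells were 44.8%, 39.1% and 54.8% of the cells over 50%, and unnamed clusters 27.7%, 32.1% and 18.41%.

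The complexes differed in how far they lay from PTEC-like cells. Relative to PTEC-like cells, the distal convoluted tubule-like sums were higher by a log2 of 0.62 for nuclear complex I, 0.45 for complex II, 0.77 for complex III, 0.83 for complex IV and 0.86 for complex V, but by 0.27 for the complex I assembly genes. The mt- genes of the 4 complexes were higher by 0.25 to 0.45. Gene by gene, 80 of 86 nuclear members were above PTEC-like cells in all 3 libraries, where 48.8% of all nuclear genes were. The differences were largest for Ndufaf5 (a complex I assembly factor, 1.33 ± 0.19), Cox5b (1.29 ± 0.087) and Ndufa1 (1.25 ± 0.062), a small membrane subunit of complex I. Ndufaf6 (-0.93 ± 0.11), Ndufaf1 (-0.24 ± 0.18), Atp5s (-0.11 ± 0.15) and Ndufa6 (-0.038 ± 0.034) were below PTEC-like cells in all 3 libraries. Of 87 nuclear members with enough UMIs, 73 had their highest mean in distal convoluted tubule-like cells, 5 in intercalated-like, 3 in thick ascending limb-like and 3 in PTEC-like cells. The lowest mean was in endothelial-like cells for 31, dendritic-like for 23, granulocyte-like for 15 and monocyte-like for 11.

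**Figure D2:**
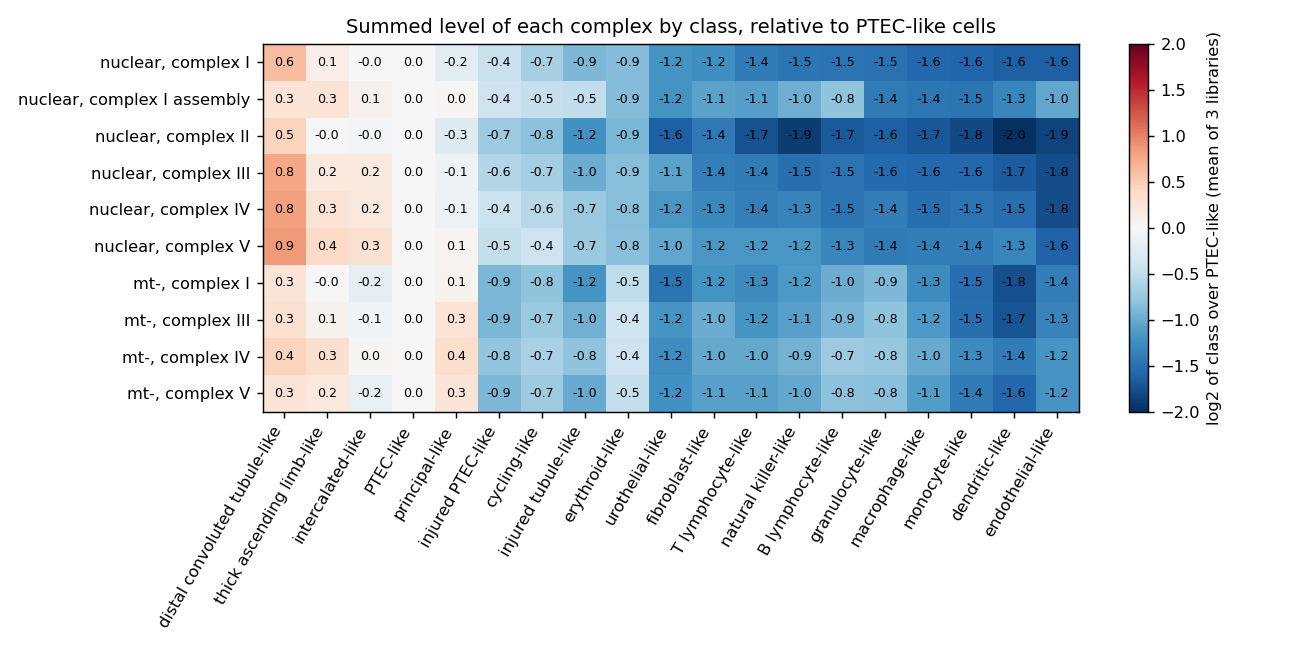
Summed level of each complex in each class as the log2 ratio to PTEC-like cells (means of 3 libraries), with nuclear and mt- genes apart. The distal convoluted tubule-like column is positive in every row, and the nuclear complex II row reaches the lowest values among immune classes.

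Complex II, the succinate dehydrogenase that also belongs to the citric acid cycle, showed the widest gap between PTEC-like cells and each of the immune classes among the nuclear sums. Its 4 genes summed to 1696, 1588 and 1646 CPM in PTEC-like cells and 480, 495 and 503 in T lymphocyte-like cells, a log2 of -1.74 against -1.39 for nuclear complex I and -1.17 for complex V. Sdha, the flavoprotein subunit that oxidises succinate, had 449, 430 and 378 in PTEC-like, 676, 628 and 664 in distal convoluted tubule-like and 107, 116 and 105 in dendritic-like cells. Sdhb, the iron-sulfur subunit, had 485, 468 and 544, then 683, 709 and 807, then 120, 137 and 119 in the same classes. The membrane anchors Sdhc and Sdhd had 381 to 416 and 309 to 346 in PTEC-like cells, and 77.7 to 83.8 and 91.7 to 105 in dendritic-like cells.

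As a share of UMIs, and not as an amount per cell, injured PTEC-like cells had less of both genomes' transcripts than PTEC-like cells as a class. The nuclear sum was lower by a log2 of 0.47 ± 0.084 over 3 libraries, and the mt- sum by 0.86 ± 0.089. The nuclear gap was not kept in WT 3 against PTEC-like cluster 0, with 48362, 50236 and 45402 CPM against 44155, 42416 and 46440. Median UMIs per cell were 9273.5 in cluster 0 and 10620.5 in the injured class. The other PTEC-like clusters lay above the injured class in all 3 libraries. For the mt- share every PTEC-like cluster did. The part of depth and cluster make-up in the nuclear gap was not tested. Of 86 nuclear members, 80 were below PTEC-like cells in all 3 libraries, where 19.7% of all nuclear genes were, and all 13 mt- genes were. The mt- log2 differences ran from -1.27 ± 0.066 for mt-Nd5 to -0.67, and the nuclear ones from -0.90 to 0.21. Complex II differed most among the nuclear sums (-0.73) and the complex I assembly genes least (-0.42). Cox7a2l, a factor for respiratory supercomplexes, was above PTEC-like cells in all 3 libraries (0.21 ± 0.019), as were Atp5g2 (0.12 ± 0.083) and Ndufaf2 (0.092 ± 0.023). This class came from 1 cluster of 200, 360 and 126 cells, and its summed PTEC markers (14 genes) were 19542, 18629 and 36669 CPM against 74703, 88482 and 86741 in PTEC-like cells. The class depends on the cell filter, as 4 of the other cell filters gave no cluster of this name.

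Few subunit genes marked a cell class. Cox7a1, the muscle and heart isoform of a complex IV subunit, had 134, 150 and 129 CPM in intercalated-like cells, against 66.0, 55.7 and 57.4 in principal-like and 28.9, 30.1 and 23.9 in PTEC-like cells. The intercalated-like range did not overlap that of any other class. Its widespread counterpart Cox7a2 had means of 1525 CPM in intercalated-like, 1344 in PTEC-like and 350 in dendritic-like cells. Cox6b2, known from testis, was highest in cycling-like cells at 52.9, 57.0 and 88.9, and lowest in endothelial-like cells at 2.01, 1.85 and 2.42. Its counterpart Cox6b1 had means of 2447 CPM in distal convoluted tubule-like, 1357 in PTEC-like and 407 in endothelial-like cells. Cox6a1 and Cox8a, the widespread forms of their subunits, followed the same order, with means of 1653, 907 and 295 and of 3676, 2177 and 595 CPM, while the muscle form Cox8b had 8 UMIs in all.

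Ndufa4l2 and Cox4i2, both known as hypoxia-responsive isoforms and as genes of pericytes, had their highest levels in fibroblast-like cells. Ndufa4l2 had 161, 105 and 26.3 CPM there and a mean of at most 0.46 in each other class. Cox4i2 had 43.1, 17.7 and 6.92, from 26, 29 and 20 UMIs, and a mean of at most 0.48 elsewhere. Fibroblast-like cells comprised cluster 35 (113, 334 and 66 cells) and cluster 36 (12, 19 and 355 cells), which held most of the Aoah-/- and of the WT cells in turn. The class was named by a joint list of fibroblast and pericyte markers. Leading genes of cluster 35 included the pericyte markers Rgs5 and Acta2 beside collagen genes, and those of cluster 36 Dcn, Pi16 and collagen genes. All Cox4i2 UMIs of the class lay in cluster 35. Ndufa4l2 had 97, 164 and 66 UMIs in cluster 35 and 0, 9 and 10 in cluster 36. The usual partners Ndufa4 and Cox4i1 were present in every class, with means from 360 to 2887 and from 841 to 4760 CPM.

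The c subunit of complex V has 3 genes with the same mature protein and different import sequences, and their class patterns differed. Atp5g1 had 2556, 2635 and 2926 CPM in distal convoluted tubule-like cells against 267, 301 and 231 in endothelial-like cells, a 10.1-fold range of class means. Atp5g3 ranged over 8.07-fold between the same classes. Atp5g2 ranged over 3.85-fold, with 840, 909 and 960 in distal convoluted tubule-like cells and 229, 289 and 184 in granulocyte-like cells. In T lymphocyte-like cells Atp5g2 had 464, 493 and 510 CPM, close to its PTEC-like level of 517, 513 and 582, while Atp5g1 had 1300, 1246 and 1294 in PTEC-like against 426, 393 and 411 in T lymphocyte-like cells. With Atp5g2, the genes least variable over classes were Ndufaf3, Ndufa7, Ndufaf7 and Cox7a2l, with an SD of log2 class means from 0.43 to 0.50. The most variable were Ndufa4l2 (1.48), Cox7a1 (1.48), Cox6b2 (1.07), Atp5g1 (1.00) and Ndufa5 (0.96), a complex I subunit highest in distal convoluted tubule-like cells.

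**Figure D3:**
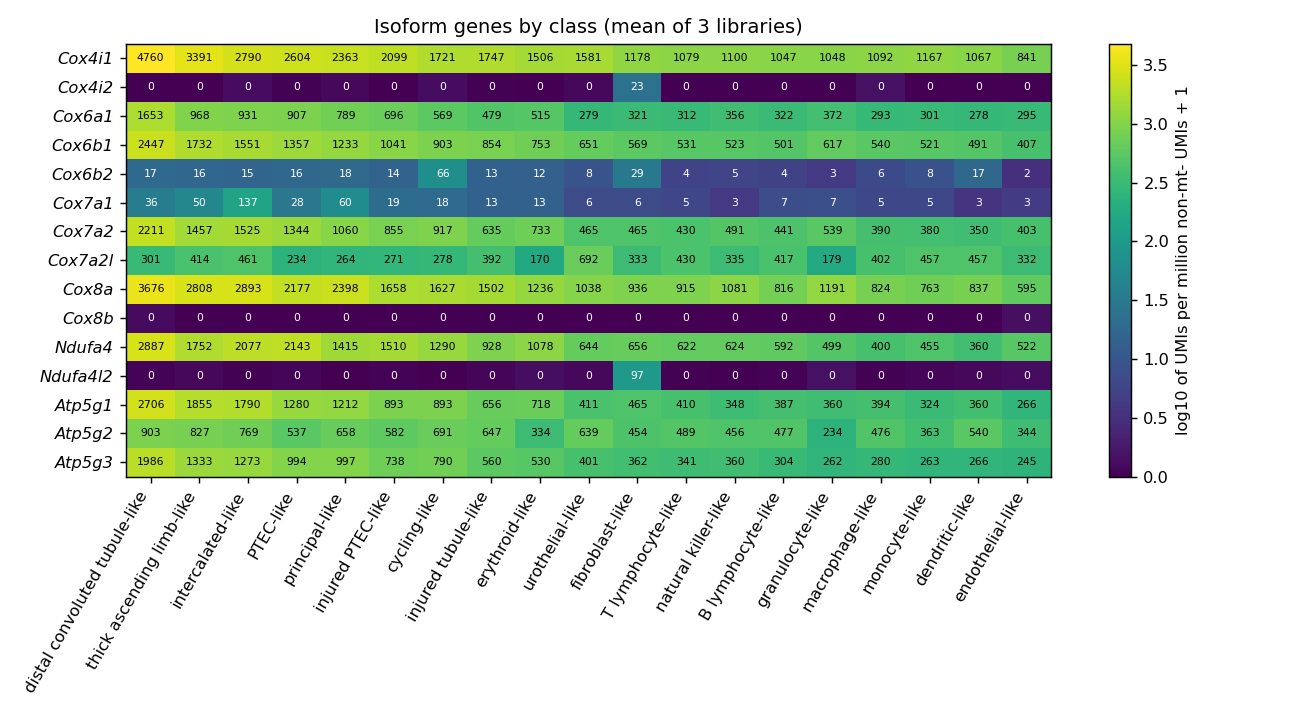
Level of 15 isoform genes (rows) in each class (columns), as means of 3 libraries in CPM, with colour on a log10 scale after adding 1. Ndufa4l2 and Cox4i2 reach 97 and 23 in fibroblast-like cells and round to 0 elsewhere, and Cox7a1 peaks at 137 in intercalated-like cells.

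Between genotypes, the nuclear genes of PTEC-like cells differed little. Their sum in Aoah-/- was above WT by a log2 of 0.031 ± 0.0074 (SD between 2 libraries), and other processing choices gave -0.050 to 0.037. No nuclear member was lower or higher by 1.5-fold or more in both Aoah-/- libraries, out of 86 with at least 30 UMIs. Among all 13754 such genes 2.37% were lower and 12.0% higher. Many of those are scarce, and among the 2984 genes with a mean of 50 CPM or more the shares were 0.838% and 1.64%, against 0 and 0 of 79 members. The median log2 of those 79 was -0.0071 and that of the 2984 genes -0.033. By any amount, 36 members were above WT in both Aoah-/- libraries and 35 below in both, against 48.2% and 34.4% of all genes.

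Within that narrow range some complexes lay to 1 side of WT and others on both sides. Of complex I subunit genes, 13 of 36 were above WT in both Aoah-/- libraries and 17 below in both (median log2 -0.012). For complex II these were 1 and 1 of 4, and for complex V 6 and 7 of 15 (median -0.023). The 8 complex I assembly genes summed to 349 and 361 CPM in the Aoah-/- libraries and 404 in WT 3 (log2 -0.19 ± 0.035), and 6 of the 8 were lower in both libraries by any amount, beside 34.4% of all genes. Ndufaf4 had 91.4 and 94.4 against 115 (-0.31 ± 0.033), Ndufaf2 47.9 and 50.4 against 57.95 (-0.23 ± 0.052), and Ndufaf6 46.9 and 48.4 against 55.4 (-0.21 ± 0.033). The sum was lower in both Aoah-/- libraries within each of the 6 PTEC-like clusters. In thick ascending limb-like cells it was 388 and 426 against 533 (-0.39 ± 0.096), with 7 of 8 genes lower in both libraries beside 36.8% of all genes. Ndufaf4 was furthest below, at 83.3 and 87.8 against 131 CPM (-0.61 ± 0.054), and the exact Poisson 95% interval of the WT level (117 to 147, counting error only) did not reach those of the Aoah-/- levels (75.5 to 91.6 and 79.9 to 96.3). In distal convoluted tubule-like cells the sum was 437 and 430 against 473 (-0.13 ± 0.018), with 3 of 8 genes lower in both libraries beside 35.1% of all genes, and in injured PTEC-like cells 254 and 274 against 307 (-0.22 ± 0.078). The lower sum was not particular to these classes. It was 368 and 396 against 425 in intercalated-like cells (-0.15 ± 0.075) and 130 and 137 against 144 in macrophage-like cells (-0.11 ± 0.053). In T lymphocyte-like cells it was 168 and 179 against 175 and in principal-like cells 371 and 383 against 378, on either side of WT, and in dendritic-like cells it was above WT, 149.6 and 159 against 141 (0.13 ± 0.062).

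Complex III and IV sums lay on the other side in PTEC-like cells. Complex III had 7015 and 7047 against 6681 CPM (0.074 ± 0.0046), and complex IV 18308 and 18910 against 17467 (0.091 ± 0.033). By any amount, 6 of 8 complex III and 10 of 14 complex IV members were above WT in both libraries, beside 48.2% of all genes. Some members with at least 50 CPM lay above WT by more than the Aoah-/- libraries differed from each other. Furthest above among these were Cox6c, a small complex IV subunit, with 2317 and 2426 against 2000 (0.25 ± 0.047), Ndufa1 with 527 and 571 against 470 (0.22 ± 0.082) and Sdha (0.22 ± 0.043). Uqcr11, a small complex III subunit, had 1053 and 1088 against 944 (0.18 ± 0.034), and Atp5k, the e subunit of complex V, 485 and 517 against 442 (0.18 ± 0.066). Of scarcer members, Cox7a1 had 28.9 and 30.1 against 23.9 (0.29 ± 0.038), and Cox6b2 21.7 and 14.0 against 11.7 (0.57 ± 0.42), where the Aoah-/- libraries differed from each other. Cox7a2l (-0.21 ± 0.066) and Sdhb (-0.19 ± 0.036) were furthest below WT after the assembly genes. Sdha and Sdhb, partners in 1 enzyme, thus lay on opposite sides of WT. Within clusters these sums did not all keep their side. Complex III was above WT in both Aoah-/- libraries in clusters 0 (5504 and 5724 against 5008 CPM) and 1, below in 9, and on either side in 8, 13 and 15. Complex IV was above in clusters 0, 1 and 13, below in 8 and 9, and on either side in 15.

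**Figure D4:**
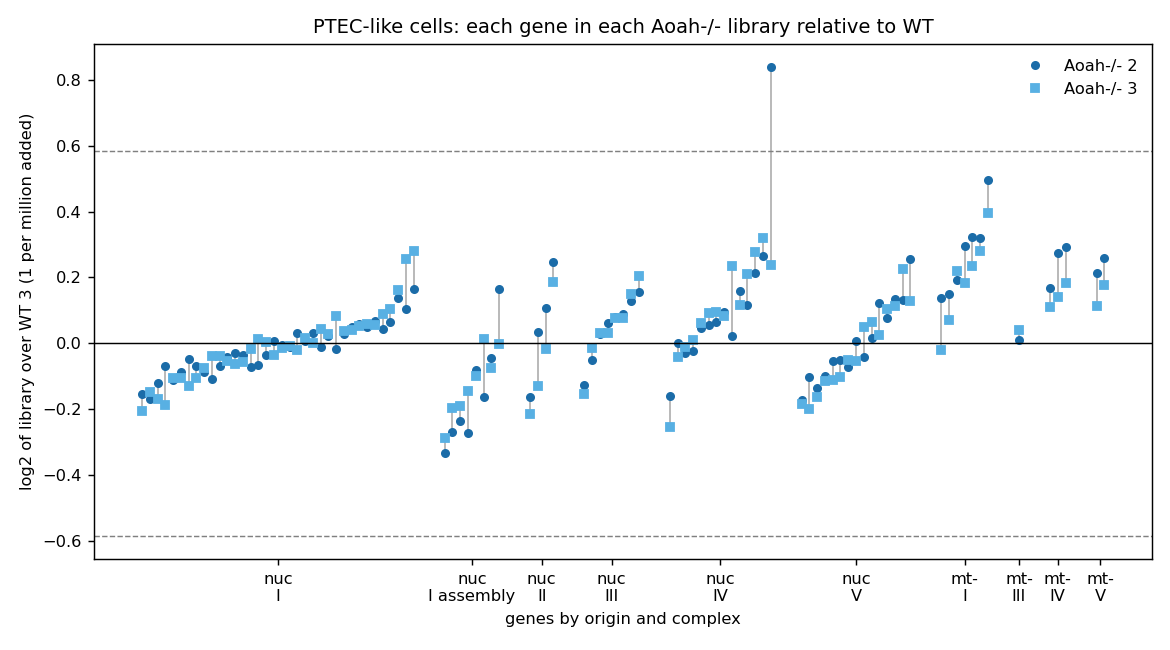
Log2 ratio of each Aoah-/- library to WT 3 in PTEC-like cells for each gene with at least 30 UMIs, by origin and complex (Atp5s is not drawn). The dashed lines mark 1.5-fold, and 1 point lies beyond them, for Cox6b2 in Aoah-/- 2.

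The mt- genes of PTEC-like cells were higher in both Aoah-/- libraries (24.4% and 23.2% against 21.0%, log2 0.18 ± 0.050). On that side lay 12 of 13 genes, but these make up the sum and share its denominator, so they are not separate observations. The gene furthest from WT was mt-Nd3, a complex I subunit gene, with 3515 and 3280 against 2494 CPM of all UMIs (0.45 ± 0.071). The nearest was mt-Cytb of complex III, with 30034 and 30722 against 29847 (0.025 ± 0.023). Neither was particular to PTEC-like cells. As a share of mt- UMIs, mt-Nd3 was above WT in both Aoah-/- libraries in most classes, and mt-Cytb below. In T lymphocyte-like cells these shares were 1.20% and 1.25% against 1.10%, and 12.1% and 12.4% against 13.3%. In erythroid-like, fibroblast-like and urothelial-like cells both lay on either side of WT. The difference in the mt- sum of PTEC-like cells depended on how cells were weighted and on the limit on mt- UMIs per cell, which acts on the same quantity. With every cell weighted equally it was -0.0085, with a limit of 20% mt- UMIs per cell -0.0016, and with the 6 clusters weighted equally 0.051. Both Aoah-/- libraries lay above WT in clusters 0, 9 and 13, below it in 8 and 15, and on either side in 1. In cluster 13 the share was 17.0% and 19.2% against 14.9%, and in cluster 15 it was 21.8% and 27.4% against 28.8%.

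**Figure D5:**
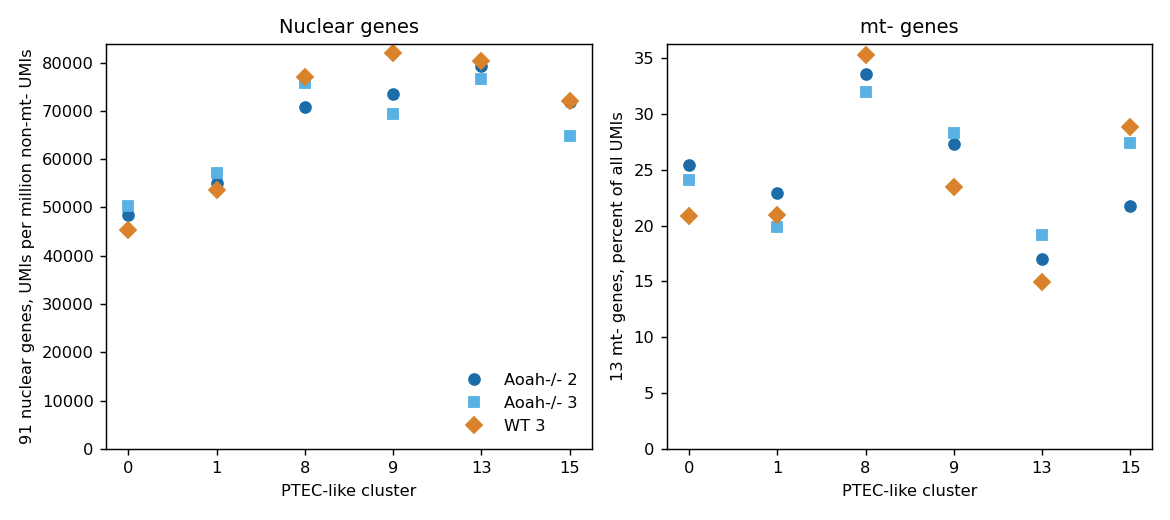
Nuclear level (left, CPM) and mt- share (right, percent of all UMIs) in the 6 PTEC-like clusters, with 1 point per library. The clusters differ from each other by more than the libraries do within most of them, from 45402 to 82041 CPM on the left.

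The PTEC-like clusters themselves spanned a wide range. Nuclear levels in WT 3 were 45402 CPM in cluster 0 and 53645 in cluster 1, but 82041 in cluster 9 and 80268 in cluster 13. Median UMIs per cell were 9273.5, 14578, 2320 and 3218.5 in those clusters, so shallow cells had the higher levels, apart from cluster 8 with 23733 UMIs and 77020 CPM. Cluster 15, with a median of 788.5 UMIs, held 1883, 209 and 1862 cells, the low number being from the library with the higher UMI floor. Without it the nuclear log2 was 0.033 and the mt- log2 0.20.

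In other classes the calls were few. Cox6b2, a scarce gene, was called on both sides of WT. It was higher in injured PTEC-like, erythroid-like and urothelial-like cells and lower in T lymphocyte-like, cycling-like and principal-like cells. Of all genes, 1595 of 7971 were higher in erythroid-like and 722 of 11199 in urothelial-like cells. Lower were 602 of 9222 in cycling-like and 220 of 10330 in principal-like cells. Cox7a1 was also called higher in urothelial-like cells. Ndufaf6, below WT in PTEC-like cells, was called higher in principal-like cells, where 452 of 10330 genes were. In distal convoluted tubule-like cells none of 86 members was lower or higher by 1.5-fold in both libraries (1.98% and 6.08% of all genes), and 47 of 86 were below WT in both by any amount against 35.1%. In thick ascending limb-like cells none was called (3.21% and 9.62%), while the mt- share was higher in both (27.9% and 26.6% against 23.3% of UMIs, 0.23 ± 0.050). Without the mt- limit that share was 35.8% and 33.2% against 35.05%, so the side was not kept in Aoah-/- 3. In injured PTEC-like cells the nuclear sum was lower (-0.10 ± 0.041) and 53 of 86 members were below WT in both libraries against 36.2%. There Ndufaf5, Cox6b2 and Atp5s were called higher (3 of 86, 6.8% of genes higher and 4.09% lower). Ndufaf5 had 29, 34 and 11 UMIs, Cox6b2 50, 49 and 11, and Atp5s 22, 36 and 8. Summed PTEC markers in this class were 19542 and 18629 against 36669 CPM, and their part in these differences was not tested.

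Immune and stromal classes had few members called, although in several of them most nuclear members lay to 1 side of WT by any amount. By log2 of the mean Aoah-/- level, 90.2% of members in granulocyte-like and 95.5% in fibroblast-like cells were above WT. Of all genes there, 61.3% and 65.3% were. In B lymphocyte-like and monocyte-like cells 11.6% and 23.2% of members were above, against 50.7% and 51.9% of genes. Macrophage-like cells had no call (1.48% lower and 8.45% higher) and T lymphocyte-like cells had Cox6b2 lower, with 3.82 and 3.50 against 5.89 CPM from 21, 23 and 23 UMIs (2.23% and 4.25%). Granulocyte-like cells had 5 of 82 members higher, namely Atp5g3, Ndufaf6, Ndufa5, Ndufb2 and Atp5sl, and none lower (17.4% and 3.6% of genes). Atp5g3 had 294 and 319 CPM against 172, and Ndufaf6 rested on 16, 37 and 3 UMIs. Summed PTEC markers in granulocyte-like cells were 12076, 22973 and 11747 CPM, highest in Aoah-/- 3, where the nuclear sum was also highest (27241 against 20945 and 19200). Their part in the difference was not tested.

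Fibroblast-like cells had the widest difference, with nuclear sums of 22863 and 34379 against 20379 CPM (0.49 ± 0.42) and mt- shares of 11.8% and 13.2% against 7.63% (0.71 ± 0.11). Cox4i2 and Ndufa4l2 were called higher in both Aoah-/- libraries, 2 of 88 members, and none lower (16.9% and 8.91% of genes). Within cluster 35 alone, Cox4i2 was 46.5 and 18.404 against 53.1 and Ndufa4l2 173 and 104 against 175 CPM, so neither was higher in Aoah-/- there. The mt- share of cluster 35 was 11.8% and 13.02% against 12.5%, on either side of WT. Its nuclear sum was 22687 and 34636 against 25161 CPM, also on either side. In cluster 36 the nuclear sum was 25091 and 28339 against 19662, from 12 and 19 Aoah-/- cells. Summed PTEC markers were 5816, 19222 and 6936 CPM in this class.

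Related gene groups were set beside these, and their counts are to be read against the 2.37% of all genes lower and 12.0% higher by 1.5-fold in PTEC-like cells. In PTEC-like cells no gene of 13 regulators (among them Ppargc1a, Esrra, Nrf1, Tfam and Hif1a) or of 12 citric acid cycle genes passed the 1.5-fold rule. The regulators summed to 640 and 632 against 608 CPM (0.063 ± 0.013). The citric acid cycle genes summed to 3458 and 3300 against 3181 CPM (0.087 ± 0.048). Of 19 carrier and assembly genes 1 was higher, and of 14 glycolysis genes 4 were higher, although the glycolysis sum was lower, 4250 and 4042 against 4639 (-0.16 ± 0.051). None of 77 mitochondrial ribosomal protein genes was called, and their sum was 8131 and 8023 against 8858 (-0.13 ± 0.014), lower also in thick ascending limb-like (-0.14 ± 0.027) and distal convoluted tubule-like cells (-0.11 ± 0.027). The 77 cytosolic ribosomal protein genes gave 66241 and 66067 against 71490 (-0.11 ± 0.0027) in PTEC-like cells and 0.21 ± 0.041 in thick ascending limb-like cells. The assembly and mitochondrial ribosome sums were below WT in both Aoah-/- libraries in these 3 tubule classes. Neither was particular to them. The mitochondrial ribosome sum was below in both in most other classes too, among them intercalated-like (-0.037 ± 0.024), macrophage-like (-0.067 ± 0.023) and T lymphocyte-like cells (-0.050 ± 0.030). It lay on either side of WT in dendritic-like, endothelial-like, erythroid-like, fibroblast-like, granulocyte-like and urothelial-like cells. In distal convoluted tubule-like cells the complex I, II and V subunit sums were below WT in both as well (-0.065 ± 0.033, -0.078 ± 0.0083 and -0.059 ± 0.031).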

How the data were processed

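Single-cell libraries of kidney cells (10x Genomics, transcript 3′ ends) were made from 2 Aoah-/- mice and 1 WT mouse. The authors deposited raw UMI counts per gene and barcode, as 1 matrix per library. The submitters' processing notes name Cell Ranger 3.1.0, STAR, mm10 and Seurat 4.2.0, whereas the matrix headers name Cell Ranger 6.1.2. Reads shared by near-identical genes or pseudogenes could be lost or misplaced by such counting, which makes levels of single family members uncertain.

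From these counts, cells below 200 genes or above 50% mt- UMIs were removed and the rest clustered without the 104 genes (scanpy 1.11.5, 2000 variable genes, 50 components, 15 neighbours, Leiden resolution 1). A cluster was named where the mean log2 fold of its 5 best markers was at least 2, at least 3 markers passed 2-fold, a marker stood among its top 10 genes and it held at least 50 cells. That rule was set after the clusters were seen. Scrublet called 544, 0 and 201 cells in Aoah-/- 2, Aoah-/- 3 and WT 3 and so did not work in Aoah-/- 3. Doublets were therefore kept, and an alternative left out the 10% of cells with the highest scores.

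UMIs were summed per library and class. A gene was called where both Aoah-/- libraries differed from WT by 1.5-fold or more on the same side, among genes with at least 30 UMIs over the 3 libraries. Gene ratios had 1 CPM added. The calculations were checked on simulated counts. Genes named in the genotype comparison were the 5 furthest above and the 5 furthest below WT in PTEC-like cells, with at least 50 CPM and both Aoah-/- libraries on the same side by more than the gap between them. Isoform genes, the complex II genes and the 5 most and 5 least variable over classes were named as well, and Cox7a1 and Cox6b2 in the genotype comparison were added after their values were seen. The genes and lists were chosen with earlier results of these data known. Intervals cover counting error only. Some items are not reported here.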

Additional observations from a re-analysis of the deposited data

Results flagged for a closer look

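In PTEC-like cells both Aoah-/- libraries lay above WT for the nuclear sum (log2 0.031) and for the mt- sum (0.18), and in some other classes both lay below. For the nuclear sum these were cycling-like (-0.23), B lymphocyte-like (-0.19), injured PTEC-like (-0.10), monocyte-like (-0.092), distal convoluted tubule-like (-0.051) and macrophage-like cells (-0.032). For the mt- sum they were macrophage-like (-0.41), natural killer-like (-0.34), B lymphocyte-like (-0.24), granulocyte-like (-0.21), cycling-like (-0.21), monocyte-like (-0.15), T lymphocyte-like (-0.12) and endothelial-like cells (-0.061). The differences from PTEC-like cells were not tested. Summed PTEC markers were also below WT in both Aoah-/- libraries in each class named for the nuclear sum. They were 11248 and 12437 against 20950 CPM in cycling-like, 6028 and 6630 against 10756 in monocyte-like and 7877 and 14429 against 15409 in B lymphocyte-like cells. Of the classes named for the mt- sum, they were above WT in endothelial-like and granulocyte-like cells. Their part in these differences was not tested. The macrophage-like mt- share was 10.5% and 8.55% against 12.6%, and the class held a shallow cluster of 874, 151 and 1118 cells with a median of 747 UMIs. In the deeper macrophage-like cluster alone the mt- log2 was -0.15 and the nuclear log2 0.087, an alternative chosen after seeing the data.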

How the results depend on the processing

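The nuclear genotype difference in PTEC-like cells (log2 0.031) was small enough for its sign to depend on processing. It was -0.021 with a limit of 20% mt- UMIs per cell, -0.033 with median-of-ratios size factors, -0.021 with the denominators of nuclear and mt- genes swapped, -0.017 as a mean over cells, -0.050 as a mean over clusters and 0.013 with no mt- limit. The mt- difference (0.18) was -0.0016 with the 20% limit, -0.0085 as a mean over cells, 0.051 as a mean over clusters and 0.23 with swapped denominators. Leaving out 1 Aoah-/- library gave 0.026 to 0.036 and 0.15 to 0.22. The means over clusters were chosen after seeing the data, and the causes were not tested. No nuclear member was called lower under any alternative. The number called higher was 0, and 1 with no minimum beyond 1 UMI (Cox4i2, from 2, 4 and 0 UMIs). Leaving out 1 library gave 0 to 1, the 1 being Cox6b2 without Aoah-/- replicate 3.

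PTEC-like cells exceeded T lymphocyte-like cells under each alternative run. The nuclear difference (1.33) was 1.41 with the 20% limit, 1.27 with no limit, 1.45 with at least 500 genes per cell, 1.48 with the same UMI floor in each library, 1.54 at Leiden resolution 2, 1.58 without the highest Scrublet scores, 1.11 with swapped denominators and 1.54 as a mean over cells. The mt- difference (1.12) was 0.70 with the 20% limit, 1.30 with the UMI floor, 1.31 at resolution 2, 1.32 without the highest Scrublet scores and 1.33 with swapped denominators. Leaving out 1 library gave 1.31 to 1.34 and 1.06 to 1.22. Of 200 values for 20 other results, 36 moved by more than the spread between libraries and 0 were counted as reversed. For a genotype difference, a reversal counted only where the gap to WT exceeded the gap between the 2 Aoah-/- libraries. Smaller differences could therefore change sign uncounted. The macrophage-like nuclear log2 (-0.032) did so, being positive in the deeper cluster alone. The complex I assembly difference in PTEC-like cells ranged from -0.25 to -0.16. The injured PTEC-like class could not be rebuilt under 4 of the cell filters. No paired analysis was possible because the genotypes share only 1 replicate number, and no genotype comparison was possible without WT replicate 3. With 1 WT mouse, differences between mice and between genotypes cannot be told apart.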
